A study of Mus musculus with 2 samples.

Results

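The nuclear genes of the respiratory chain and of ATP synthase were compared between islets of mice with a beta cell-specific deletion of Zbtb20 and islets of their control littermates. Members were taken by gene symbol alone, as every gene named by 1 probe set symbol that starts with Nduf followed by a, b, c, s or v, with Uqcr, with Cox4 to Cox8 or with Atp5, or that is Sdha, Sdhb, Sdhc or Sdhd. This gave 90 of the 18193 genes on the array, read by 179 probe sets. The rule itself uses no measured value, but it was set with earlier results of these data known. By symbol, 36 were complex I subunits, 4 complex II, 8 complex III, 17 complex IV and 17 complex V, and 8 were complex I assembly factors (Ndufaf genes), which help build the complex and are not part of it. Subunits encoded by mitochondrial DNA were not analysed here.

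Each group was 1 microarray of 1 islet preparation. The first group held islets of adult mice whose Zbtb20, which encodes a zinc finger transcription factor, is deleted in beta cells. The other held wildtype islets from littermates. Both groups had a mixed genetic background and an age of 2 to 3 months. The sources used here give neither the number of animals per array, nor the Cre driver, nor which part of the gene is deleted. Islets of both groups were freed by collagenase, picked by hand and cultured overnight before RNA was taken. With 1 array a group there is no replicate error and no test, and every ratio compares 2 RNA preparations.

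The respiratory chain passes electrons from NADH (complex I) and succinate (complex II) through ubiquinone, complex III and cytochrome c to oxygen at complex IV, and complexes I, III and IV pump protons as they do so. ATP synthase, complex V, lets the protons flow back and makes ATP. In beta cells the ATP made from glucose closes ATP-sensitive potassium channels and so triggers insulin release, which gives these genes their interest in islets.

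Values are MAS5 signals, the linear probe set intensities deposited by the authors, and a ratio is knockout-labelled over control on the log2 scale. A gene was read by its brightest probe set, and signals under the array's median (21.7 in knockout-labelled islets and 21.6 in control islets) were raised to it, here called the floor. Both arrays carried the defining genes of islets, as the hormone genes Ins2 (insulin, 7786 in knockout-labelled islets and 9194 in control islets) and Gcg (glucagon, 10292 and 11215 in the same order) had high signals. The 9 endocrine markers had a median log2 ratio of -0.11, with 5 under and 4 above 0. They ran from Ppy at -0.65 (8095 in knockout-labelled islets and 12702 in control islets) to Pcsk1 at 0.77 (2563 and 1505 in the same order). The brightest of 9 Zbtb20 probe sets had 205 in knockout-labelled islets and 238 in control islets, and the 9 went both ways, 5 lower and 4 higher, from -0.87 to 0.54. These values do not settle the genotype, so the array is called knockout-labelled throughout. Exocrine acinar markers were lower on that array, 12 of 12 at a median log2 ratio of -1.04, with summed signals of 24543 in knockout-labelled islets and 48024 in control islets. Macrophage and dendritic cell markers were higher for 11 of 12, at a median of 0.60 and sums of 1790.3 in knockout-labelled islets and 1100.8 in control islets. All acinar and 11 of 12 macrophage markers were above the floor on both arrays, and none had a signal of 0. Duct markers were lower for 5 of 5 measured of 8, at a median of -0.32, with Krt8 at 1767 in knockout-labelled islets and 2339 in control islets. Endothelial markers were lower for 6 of 8, at a median of -0.19, with Kdr (0.83) and Emcn (0.14) higher. Stromal ones were lower for 5 of 6 measured of 7, at a median of -0.46. Over the 4 stromal markers above the floor on both arrays it was -0.27. In such mixed tissue fewer cells of a type and less RNA per cell cannot be told apart, and the part of these cell types in the values of the respiratory genes was not tested.

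Of the 90 members, 84 were above the floor on both arrays, 2 on 1 array only and 4 on neither. The 86 measured members had slightly lower signals in knockout-labelled islets than in control islets as a group, with 66 ratios under 0 (76.7%), against 49.8% of the 11802 genes measured, and 20 above 0, against 49.9%. Their median log2 ratio was -0.13, against 0 over all genes. A ratio of at least 1.5-fold was reached by 2 members on the higher side, Cox8c and Ndufaf2, where the background over all genes was 6.9%, and by 1 on the lower side, Cox4i2, where it was 6.2%. At 2-fold only Cox8c remained on the higher side and no member on the lower side, with backgrounds of 1.82% and 1.44%. These shares of members are below the background. As a guide to measurement error, probe sets of the same gene differed by a median SD of 0.12 over 44 members and 0.21 over 4719 genes. Probe sets share the RNA and the array, so this leaves out variation between animals.

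**Figure D1:**
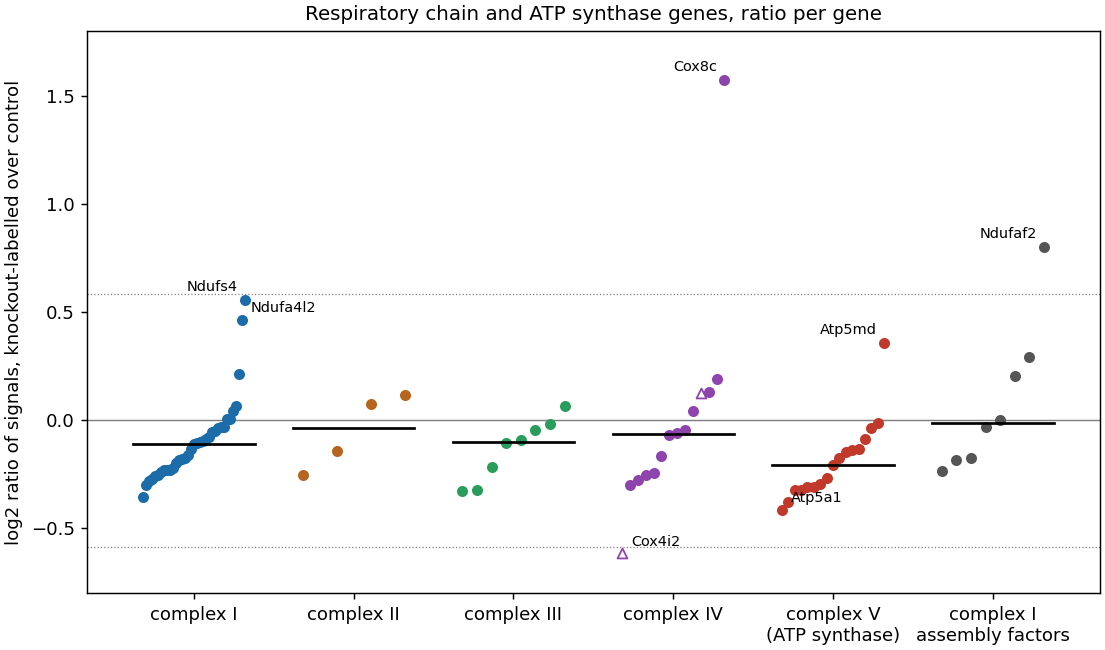
Log2 ratio of signals, knockout-labelled over control islets, for each measured gene by complex. Circles are genes above the floor on both arrays, open triangles genes above it on 1 array, where the ratio is a bound, black bars the group medians, and dotted lines mark 1.5-fold. Complex V has 16 of 17 genes under 0, and Cox8c, Ndufaf2 and Ndufs4 stand on the higher side.

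Members with bright signals must be read against genes of like brightness. Among all genes with a geometric mean signal between 1000 and 3000, the median log2 ratio was -0.046 and 60.7% of 699 genes were under 0. In the same range 35 of 40 subunits (87.5%) were under 0 with a median of -0.12. Above 3000 the median of all 196 genes was -0.092 with 73.5% under 0, and all 10 subunits were under 0 with a median of -0.20. Between 300 and 1000 the subunits had 15 of 21 under 0 (71.4%) and a median of -0.22, against 52.1% and -0.0086 over 2088 genes. No subunit in these 3 ranges lay outside the central 95% of all genes of its range. In each of these 3 ranges the subunits' median was lower than that of all genes. The few weaker subunits lay the other way, with a median of 0.079 for 2 subunits between 100 and 300, against 0.011 over all genes, and of 0.47 for 3 subunits under 100, against 0.027.

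**Figure D2:**
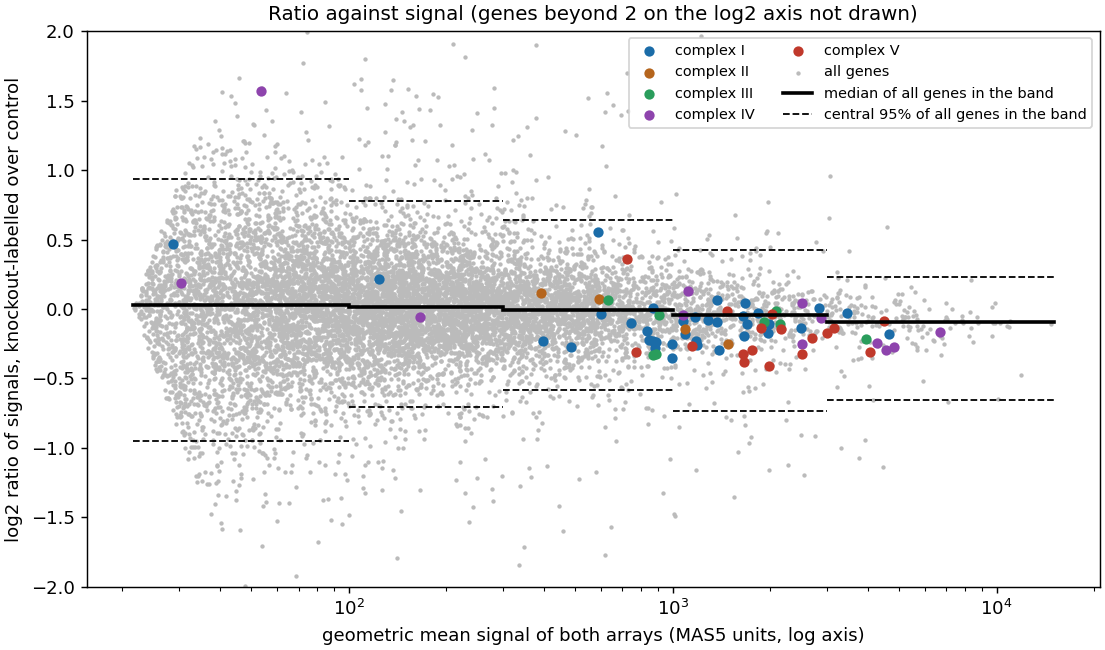
Log2 ratio, knockout-labelled over control, against the geometric mean signal of both arrays on a log axis. Grey points are the genes measured above the floor on each array, coloured points the subunits of complexes I to V, solid lines the median and dashed lines the central 95% of all genes in each of 5 signal ranges. Most subunits lie to the right, just under the line of the medians and inside the dashed lines.

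Nuclear genes of the respiratory chain are known as targets of NRF1, the nuclear respiratory factor, which binds a GC-rich palindrome near the start of many of them. RefSeq promoter windows (GRCm38.p6) were at hand for 74 of the 90 members, as 79 windows, and the 250 bases before each start were searched on both strands. The NRF1 letters GCATGCGC, or GCGCATGC on the other strand, stood in 8 of 79 windows (10.1%), against 2.26% of all 32851 windows. The palindrome GCGCATGCGC holds both, so a window with it counts once. The windows of all 8 members with a match are printed from 5′ to 3′ with the NRF1 letters in capitals. They are followed by those of Ndufs4 and Ndufaf2, which had the highest ratios after Cox8c and no NRF1 match. Most member windows had no match, also those of members with low ratios such as Atp5j (-0.38) and Ndufs5 (-0.35).
Atp5g2, chr15:102671048-102671297, minus strand: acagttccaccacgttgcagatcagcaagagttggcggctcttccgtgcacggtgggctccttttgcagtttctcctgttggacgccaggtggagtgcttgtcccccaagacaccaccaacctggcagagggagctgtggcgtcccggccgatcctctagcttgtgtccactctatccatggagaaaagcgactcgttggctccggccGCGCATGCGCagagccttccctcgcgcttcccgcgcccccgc
Atp5k, chr5:108434400-108434649, minus strand: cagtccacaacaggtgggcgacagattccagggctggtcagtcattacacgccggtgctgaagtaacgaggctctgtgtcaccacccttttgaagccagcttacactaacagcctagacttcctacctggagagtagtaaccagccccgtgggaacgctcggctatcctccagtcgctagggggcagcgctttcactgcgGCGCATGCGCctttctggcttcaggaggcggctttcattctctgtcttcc
Atp5l, chr9:44920743-44920992, minus strand: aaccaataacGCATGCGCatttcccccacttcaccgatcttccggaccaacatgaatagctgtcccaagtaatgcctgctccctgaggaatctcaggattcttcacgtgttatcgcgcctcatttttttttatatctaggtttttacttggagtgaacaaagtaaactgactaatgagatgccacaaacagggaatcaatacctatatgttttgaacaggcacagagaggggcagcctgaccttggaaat
Cox6a1, chr5:115348959-115349208, minus strand: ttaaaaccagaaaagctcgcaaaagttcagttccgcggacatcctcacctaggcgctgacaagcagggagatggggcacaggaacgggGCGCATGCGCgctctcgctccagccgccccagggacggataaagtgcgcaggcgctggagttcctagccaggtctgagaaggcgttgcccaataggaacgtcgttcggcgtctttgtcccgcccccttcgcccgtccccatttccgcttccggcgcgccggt
Ndufa6, chr15:82354292-82354541, minus strand: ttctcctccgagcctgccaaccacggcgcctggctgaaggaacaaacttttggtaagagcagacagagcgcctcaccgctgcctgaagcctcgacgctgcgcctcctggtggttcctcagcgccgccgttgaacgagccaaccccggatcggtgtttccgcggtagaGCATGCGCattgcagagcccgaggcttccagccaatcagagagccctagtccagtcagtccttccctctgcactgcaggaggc
Ndufa8, chr2:36049339-36049588, minus strand: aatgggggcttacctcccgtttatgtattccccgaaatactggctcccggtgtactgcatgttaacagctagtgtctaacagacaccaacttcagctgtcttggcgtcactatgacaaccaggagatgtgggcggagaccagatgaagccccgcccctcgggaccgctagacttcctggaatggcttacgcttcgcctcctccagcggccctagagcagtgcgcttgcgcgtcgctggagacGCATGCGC
Ndufaf4, chr4:24897833-24898082, plus strand: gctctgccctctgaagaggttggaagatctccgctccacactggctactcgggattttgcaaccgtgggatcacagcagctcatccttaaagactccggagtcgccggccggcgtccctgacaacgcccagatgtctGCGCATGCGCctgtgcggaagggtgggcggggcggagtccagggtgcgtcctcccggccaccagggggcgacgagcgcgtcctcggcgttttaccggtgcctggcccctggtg
Sdhb, chr4:140961021-140961270, plus strand: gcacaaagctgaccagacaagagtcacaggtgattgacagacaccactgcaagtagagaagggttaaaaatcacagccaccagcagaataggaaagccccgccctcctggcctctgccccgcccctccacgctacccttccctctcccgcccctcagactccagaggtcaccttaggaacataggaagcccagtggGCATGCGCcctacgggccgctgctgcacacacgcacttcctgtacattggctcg
Ndufs4, chr13:114388095-114388344, minus strand: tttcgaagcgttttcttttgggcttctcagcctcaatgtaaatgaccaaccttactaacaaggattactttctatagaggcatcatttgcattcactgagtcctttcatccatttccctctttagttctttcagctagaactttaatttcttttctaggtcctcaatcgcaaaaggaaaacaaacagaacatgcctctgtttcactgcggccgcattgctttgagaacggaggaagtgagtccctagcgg
Ndufaf2, chr13:108158626-108158875, minus strand: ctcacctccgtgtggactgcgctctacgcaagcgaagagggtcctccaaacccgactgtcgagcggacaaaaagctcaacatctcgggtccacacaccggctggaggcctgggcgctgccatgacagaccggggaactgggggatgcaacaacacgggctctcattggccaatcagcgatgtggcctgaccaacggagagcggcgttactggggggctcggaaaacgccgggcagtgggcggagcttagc

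All 8 members with the NRF1 letters were measured. Of these, 7 had a ratio under 0, and the median of the 8 was -0.16. Over all measured members 66 of 86 were under 0 (76.7%), at a median of -0.13. Atp5g2, Atp5k, Atp5l, Cox6a1, Ndufa6, Ndufa8 and Sdhb were lower in knockout-labelled islets, between -0.32 (Atp5k) and -0.036 (Ndufa8), and the assembly factor gene Ndufaf4 was at 0.0027. The letters CCGGAAGT of the ETS factor GABPA stood in 3 windows (3.80%, against 2.88% of all), those of Atp5h, Uqcr11 and Uqcrh. The motif of YY1 was in 1 window, that of Atp5j (1.27%, against 0.301%). The half-site AAGGTCA of estrogen-related receptors was in 5 windows (6.33%, against 4.08%) and the CCAAT box in 33 (41.8%, against 33.9%). Measured members with these other letters were mostly under 0 too. They were 3 of 3 for GABPA (median -0.14), 4 of 4 for estrogen-related receptors (-0.16) and 24 of 29 for the CCAAT box (-0.11). Atp5j, the 1 member with the YY1 motif, was at -0.38. A match describes these letters in this window and shows no binding.

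Complex I, the NADH dehydrogenase and entry point of most electrons, had 28 of 35 measured subunit genes under 0 and a median log2 ratio of -0.11, a difference of -7.19% at the median. Its core subunits, which carry the flavin and the iron-sulfur clusters, were all lower in knockout-labelled islets, 6 of 6 at a median of -0.25. Ndufs8, an iron-sulfur subunit, had a signal of 1258 in knockout-labelled islets and 1546 in control islets. For Ndufv1, the NADH-binding flavoprotein, the signals were 801 in knockout-labelled islets and 973 in control islets. Ndufs1, the largest iron-sulfur subunit, gave 443 against 534. These ratios were -0.30, -0.28 and -0.27 on the log2 scale. Ndufs3, near the ubiquinone end, stood at 804 in knockout-labelled islets and 944 in control islets, Ndufv2 at 1547 and 1773, and Ndufs7 at 718 and 771 in the same order. Other probe sets of Ndufs8 ran from -0.18 to 0.049, those of Ndufv1 from -0.29 to -0.13 and those of Ndufv2 from -0.035 to 0.035. Ndufs7 had another probe set on the other side of 0, at 0.11. When the ratios of a gene's probe sets were averaged, the core median was -0.16.

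The other complex I subunits, most of them accessory ones that surround the core and stabilise it, had 22 of 29 measured genes under 0 and a median of -0.096. Ndufs5, an accessory subunit of the membrane arm, had the lowest ratio of the complex, with 883 in knockout-labelled islets and 1129 in control islets (log2 ratio -0.35, 1.28-fold lower). Ndufab1, the mitochondrial acyl carrier protein, was at 1085 in knockout-labelled islets and 1297 in control islets. Ndufa5 was at 915 and 1089 in the same order. The ratios of Ndufa10, Ndufb3, Ndufb5 and Ndufb8 lay between -0.24 and -0.22, and Ndufb10 and Ndufb11 were close to equal on both arrays, at 0.0053 and 0.0067. Ndufb4 was under the floor on both arrays in its 1 probe set assigned to a single gene.

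Ndufs4 went against its complex. It encodes an accessory subunit at the junction of the NADH-binding module, whose loss in mice causes a fatal encephalopathy and in people Leigh syndrome. The signal of its brightest probe set was 712 in knockout-labelled islets and 484 in control islets, 1.47-fold higher. All 4 of its probe sets were above the floor and higher on the knockout-labelled array. The other probe sets had 106 in knockout-labelled islets and 66 in control islets, 79.3 and 66.1, and 43.3 and 29.7, in the same order. Their log2 ratios were 0.69, 0.26 and 0.54, beside 0.56 for the brightest. Among genes with signals between 300 and 1000, the central 95% reached 0.64, so Ndufs4 lay inside it, at the 96.6th percentile. Under the 8 alternatives its ratio stayed between 0.51 and 0.57. Of the genes counted by symbol with complex I, Ndufs4, Ndufa4l2 (0.47), Ndufb1 (0.22), Ndufb6 (0.065) and Ndufa4 (0.042) were the highest. Ndufa4l2 lay next to the floor, and its paralogue Ndufa4 is now assigned to complex IV.

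The 8 assembly factor genes among the members were split evenly, 4 under and 4 above 0, at a median of -0.014. Ndufaf2, a chaperone that binds late intermediates of complex I, had a signal of 159.9 in knockout-labelled islets and 91.8 in control islets, 1.74-fold higher, from its only probe set. This put it outside the central 95% of genes with signals between 100 and 300, which reached 0.77. Ndufaf8 was at 306 in knockout-labelled islets and 250.1 in control islets (log2 ratio 0.29), with its other probe set at 0.34. Ndufaf6 (-0.23), Ndufaf7 (-0.18) and Ndufaf1 (-0.17) were on the lower side, and Ndufaf3 was at -0.031. The brightest probe set of Ndufaf4 gave 0.0027 and its second gave 0.34, with 126 in knockout-labelled islets and 99.4 in control islets. Ndufaf5 was at 0.21.

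Complex II, the succinate dehydrogenase shared with the citric acid cycle, showed lower signals for its catalytic pair and slightly higher ones for its membrane anchors, at a median of -0.034 over 4 genes. Sdhb, the iron-sulfur subunit, had 1355 in knockout-labelled islets and 1615 in control islets (log2 ratio -0.25). Sdha, the flavoprotein, had 1041 and 1149 in the same order (-0.14). A much weaker Sdha probe set gave 28.8 in knockout-labelled islets and 53.4 in control islets, another 313 and 341, and the remaining one was under the floor on both arrays. Sdhc, a membrane anchor, had 408 in knockout-labelled islets and 376 in control islets, and 121 against 78.1 in its second probe set. Sdhd, the other anchor, had 610.1 in knockout-labelled islets and 579 in control islets, and 126 against 96.5 in its second probe set. All measured probe sets of Sdha and Sdhb were thus lower and all of Sdhc and Sdhd higher in knockout-labelled islets.

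Complex III, which hands electrons from ubiquinol to cytochrome c, had 7 of 8 genes under 0 and a median of -0.10. Uqcrfs1, the Rieske iron-sulfur protein and one of its catalytic subunits, had 779 in knockout-labelled islets and 978 in control islets, 1.26-fold lower. Uqcr11, a small accessory subunit, had 793 and 992 in the same order, 1.25-fold lower. Each was read by a single probe set. Uqcrb, which lies near a ubiquinone site, was at 3659 in knockout-labelled islets and 4253 in control islets (-0.22), with its other probe set at -0.014. The exception was Uqcrc1, a core protein, with 649 in knockout-labelled islets and 619 in control islets. Its partner Uqcrc2 had 1854 and 1977. Uqcrh, the hinge protein, was at -0.11 in its brightest and at 0.29 in its other probe set. Uqcr10 (-0.045) and Uqcrq (-0.017) were close to 0, though Uqcr10 had another probe set at 0.43.

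Complex IV, cytochrome c oxidase, had 9 of 14 measured genes under 0 and a median of -0.062. Without the 7 isoforms known mainly from muscle, lung or testis, 7 of 10 were under 0 at a median of -0.12. Cox5b, a nuclear subunit on the matrix side, had 4109 in knockout-labelled islets and 5051 in control islets (-0.30). Cox7a2 had 4374 and 5302 in the same order (-0.28), and its other probe set gave -0.27. Cox6c was at -0.25 in its brightest and 0.014 in its other probe set, Cox6b1 at -0.25 and -0.15, and Cox6a1 at -0.17 and -0.11. Cox4i1, the common form of subunit 4, was nearly level, with 2813 in knockout-labelled islets and 2947 in control islets, and at 0.0044 with quantile normalization. Cox5a (0.042) and Cox8a (-0.046) were nearly level too. Cox7a2l, which joins complexes III and IV into supercomplexes, was higher in all 3 of its probe sets, from 0.086 to 0.13, with 1169 in knockout-labelled islets and 1067 in control islets for the brightest. Cox7c was read only by probe sets near or under the floor, the brighter at 32.4 in knockout-labelled islets and 28.4 in control islets. Cox7b was not analysed here.

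The tissue-restricted isoforms had weak signals, and 3 of the 7, Cox6b2, Cox7b2 and Cox8b, were under the floor on both arrays. Cox8c, known as a testis form of subunit 8, had the highest ratio of all members, with 92.2 in knockout-labelled islets and 31 in control islets, 2.97-fold higher. Its second probe set gave 50.3 in knockout-labelled islets and 37.5 in control islets, 0.42 on the log2 scale, so the size of the difference rested on 1 probe set, of the _x_at type that can take up other transcripts. Cox4i2, the form of subunit 4 known from lung and from the response to low oxygen, had 9.2 in knockout-labelled islets and 33.2 in control islets, at least 1.53-fold lower. Its knockout-labelled signal was under the floor, and it had no other probe set. Ndufa4l2, which is also induced by low oxygen, did not share this side, with 33.7 in knockout-labelled islets and 24.4 in control islets, both next to the floor. Its paralogue Ndufa4, now counted with complex IV, had 1699 and 1650.4 in the same order. Cox6a2, the muscle form of subunit 6a, had 163 in knockout-labelled islets and 169 in control islets. Cox7a1, another muscle form, lay next to the floor at 23.6 and 21.6. Of 6 muscle markers, 4 were under the floor on both arrays, and Acta1, muscle actin, had 23.7 in knockout-labelled islets and 34.6 in control islets.

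Complex V, ATP synthase, had the lowest median of the 5 complexes, -0.21, with 16 of 17 genes under 0 and a difference of -13.4% at the median. It was the lowest under each alternative except without _x_at and _s_at probe sets, where complex I had -0.16 and complex V -0.15. In F1, the catalytic head, all 5 genes were under 0 at a median of -0.31, which became -0.16 with 4 of 5 under 0 when probe sets were averaged. Atp5a1, the alpha subunit, had 1715 in knockout-labelled islets and 2284 in control islets, 1.33-fold lower. All 3 of its probe sets were lower, the others at -0.19 and -0.21. Atp5b, the catalytic beta subunit, had 3656 in knockout-labelled islets and 4525 in control islets (-0.31) from its only probe set. Atp5c1, the gamma subunit of the rotating shaft, had 2237 and 2797 in the same order (-0.32). Its second probe set, with 28.5 in knockout-labelled islets and 18.5 in control islets, was next to the floor. Atp5d, the delta subunit, had 2515 in knockout-labelled islets and 2903 in control islets, and Atp5e, the epsilon subunit, was level at 1469 and 1481.

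In the membrane part, the stalks and the small subunits of ATP synthase, 11 of 12 genes were under 0 at a median of -0.16. Atp5j, coupling factor 6 of the peripheral stalk, had 1459 in knockout-labelled islets and 1899 in control islets, 1.30-fold lower. Atp5o, the stalk subunit that confers oligomycin sensitivity, had 1049 and 1263 in the same order, with another probe set at 0.10. Atp5k, subunit e, had 1472 in knockout-labelled islets and 1841 in control islets, and its 3 probe sets ran from -0.32 to -0.063. The proton-carrying ring is made of 1 protein encoded by 3 genes, which stood in the order Atp5g2 (-0.30), Atp5g1 (-0.13) and Atp5g3 (-0.084). Atp5g2 had 1590.1 in knockout-labelled islets and 1954 in control islets, Atp5g1 1787 and 1961, and Atp5g3 4378 and 4642. With quantile normalization Atp5g3 was at 0.049, on the other side of 0. Averaged over its probe sets, Atp5g2 was at -0.0065 and Ndufs8, described with complex I, at -0.083. The weaker Atp5g2 probe set in that average, with 26.3 in knockout-labelled islets and 20.4 in control islets, was next to the floor. Atp5md, a small subunit of the membrane part, was the exception, with 817 in knockout-labelled islets and 637 in control islets, 1.28-fold higher from its only probe set. Atp5mpl, another small subunit, had 692 and 859 in the same order (-0.31). The remaining genes, Atp5h, Atp5j2, Atp5l and Atp5pb, lay between -0.17 and -0.038.

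**Figure D3:**
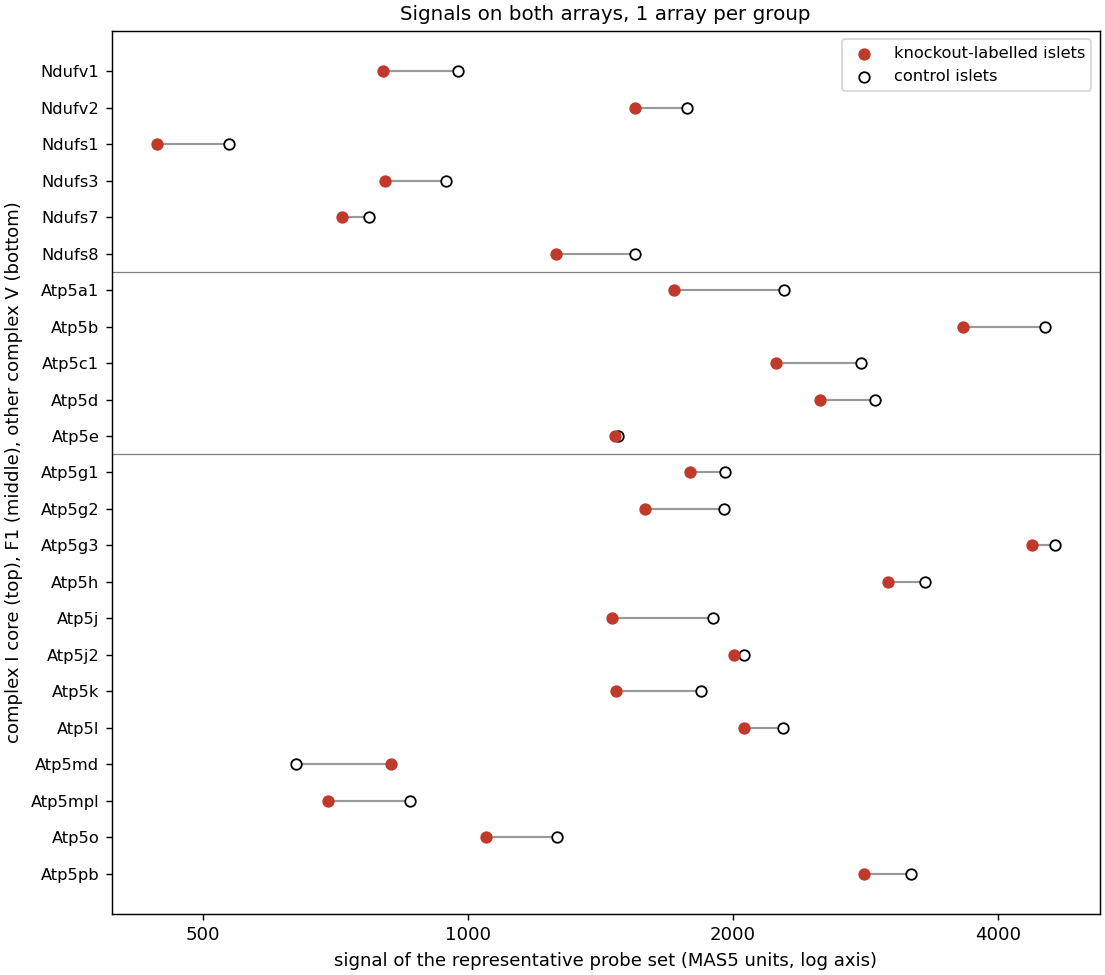
Signals of the representative probe set on a log axis for complex I core subunits, F1 subunits and the other complex V subunits. Filled red circles are the knockout-labelled array and open circles the control array, 1 array each. The red circle lies left of the open one for all genes drawn except Atp5md, and the pair nearly coincides for Atp5e.

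Probe sets of the same gene did not always agree. Of 47 members with at least 2 measured probe sets, 19 had all of them under 0, 7 all above 0 and 21 on both sides, in no case with 1 of them past 1.5-fold. Among probe sets above the floor on both arrays, 49 of 70 of the plain _at type were under 0 at a median of -0.13. The _s_at type, which matches several transcripts, had 18 of 19 under 0 and a median of -0.11. Of the _x_at type, which shares probes with other sequences, 14 of 27 were under 0 at a median of -0.0082. In 19 members with both an _x_at probe set and another, the _x_at mean was the higher in 13, by a median of 0.092, most of all for Cox8c (1.15), Sdhc (0.51) and Ndufb2 (0.39). Over all 803 genes with both kinds, it was the higher in 409, by a median of 0.013.

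Genes that work with the chain but lie outside the symbol patterns were described next. Of 20 measured genes for electron carriers, transport and ubiquinone synthesis, 14 were under 0 at a median of -0.12. Cyc1, cytochrome c1 of complex III, had 1396 in knockout-labelled islets and 1656 in control islets (-0.25). Slc25a3, the mitochondrial phosphate carrier that supplies ATP synthase, had 5135 and 6291 in the same order (-0.29). Coq4, needed for ubiquinone synthesis, was 1.87-fold lower, with 52.8 in knockout-labelled islets and 98.7 in control islets from 1 probe set, and Pdss2, which starts the ubiquinone side chain, was at -0.54. Atpif1, the inhibitor protein of ATP synthase, was at 0.11, and Dhodh, which feeds electrons from pyrimidine synthesis, at 0.56. Assembly factors other than the Ndufaf genes did not share the lower median, with 14 of 34 under 0 and a median of 0.020. Cox15, a heme A synthase, was at 0.93 in its brightest probe set, but its other 3 ran from -0.43 to 0.20. On the lower side, Tmem126b had 45 in knockout-labelled islets and 68.4 in control islets (-0.60), and Atpaf2, an assembly factor of ATP synthase, was at -0.53.

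Other mitochondrial gene sets and the cytosolic ribosomal protein genes did not all go the same way. Citric acid cycle genes had 7 of 12 under 0 at a median of -0.0092, with Idh3a, a subunit of NAD-dependent isocitrate dehydrogenase, at -0.54 and Suclg2 at 0.52. Mitochondrial ribosomal protein genes had 27 of 76 under 0 and 48 above, at a median of 0.064. It stayed above 0 under each alternative, between 0.046 and 0.067. Genes for protein import had 11 of 21 under 0 at a median of -0.021. Cytosolic ribosomal protein genes had 36 of 46 under 0 at a median of -0.090. That last median was 0.0037 with quantile normalization and 0.0018 with loess, while the medians of all 5 complexes kept their sign but came closer to 0. With quantile normalization they were -0.072 for complex I, -0.020 for complex II, -0.034 for complex III, -0.019 for complex IV and -0.14 for complex V.

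Among 17 regulators of mitochondrial gene expression, 11 were under 0 at a median of -0.024. Ppargc1a, the coactivator that drives respiratory genes, was 2.65-fold lower in its brightest probe set. That probe set had 23.8 in knockout-labelled islets, next to the floor, and 63 in control islets, so the size of the ratio is uncertain. The other 4 Ppargc1a probe sets had signals between 6.5 and 17 in knockout-labelled islets and between 28.9 and 56.7 in control islets. All were on the lower side and under the floor in knockout-labelled islets. Lonp1, a protease of the mitochondrial matrix, had 342 in knockout-labelled islets and 533 in control islets (1.56-fold lower), and Polg2, a subunit of the mitochondrial DNA polymerase, was 1.53-fold lower. Nrf1 had a log2 ratio of 0.59 in its brightest probe set, with 149 in knockout-labelled islets and 99.5 in control islets. Its other 3 ran from -0.22 to 0.94. Tfam, the packaging factor of mitochondrial DNA, was at 0.13, Gabpa at -0.26 and Esrra at 0.047.

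**Figure D4:**
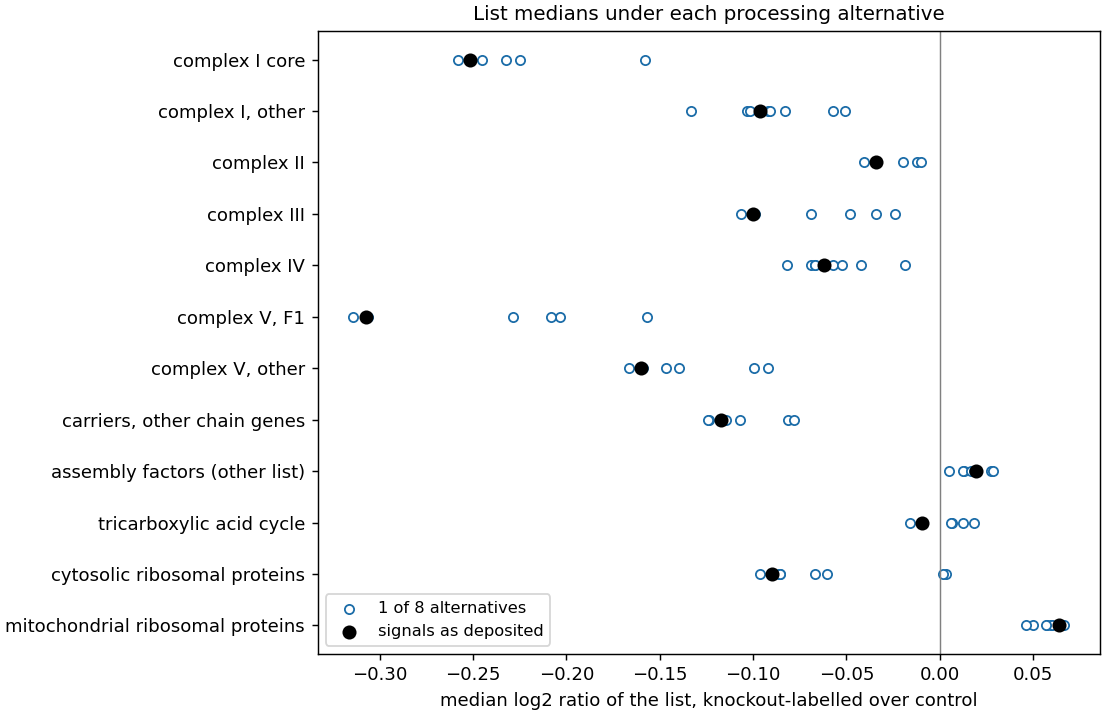
Median log2 ratio, knockout-labelled over control, of each gene list. Black circles are the signals as deposited and open circles 8 alternatives in scaling, floor or choice of probe sets. The medians of complexes I to V stay left of 0 under each, those of mitochondrial ribosomal proteins right of it, and those of cytosolic ribosomal proteins reach it.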

How the data were processed

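RNA of 1 islet preparation per group was hybridised to 1 Affymetrix array each, from 6 µg of RNA per the labels' protocols. The authors deposited linear probe set intensities, MAS5 signals per the submitters' processing notes; the MAS5 version, background step, scaling target and detection calls are not given in the sources used here. Intensities ran from 0.1 to 14244 in knockout-labelled and 15324 in control islets, and means trimmed by 2% at each end were 99.3 on both, so the arrays appear to share a scale. They were used as deposited.

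The platform annotation gave 34945 of 45037 probe sets 1 gene, 932 several and 9160 none. Only the first kind was used. The probe set with the highest mean log2 signal stood for a gene. Signals under each array's 50th percentile were raised to it. Genes above it on neither array were left out, leaving 11802, of which 10450 were above it on both. The floor is no detection limit.

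With 1 array per group no p-value, standard error or test was possible, and the number of arrays limits the precision. Lists were described by counts and medians. The members and lists were chosen with earlier results of these data known. Named genes were all members at 1.5-fold, the 4 largest ratios per complex, all Sdh genes, preset paralogue families and, beyond this rule, other members used to describe each complex. From the list of regulators and other lists up to 3 of the largest were named by rule, and others were picked for their function. The 8 alternatives are division by the array median, quantile normalization, loess, floors at the 30th and 70th percentile, no floor with a pseudocount of 16, the mean over all probe sets, and leaving out _x_at and _s_at probe sets. For lists other than the 5 complexes the recomputation was added after seeing the data. Scripts (Python 3.11.15, pandas 2.3.3, statsmodels 0.14.6) were tested on simulated data with planted higher and lower ratios. The test required recovery of the higher ones and little shift of unchanged genes, but not recovery of the lower ones. Promoters and chromosome assignments are from RefSeq, GRCm38.p6; all 90 members matched by Entrez identifier.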

Additional observations from a re-analysis of the deposited data

How the results depend on the processing

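No paired analysis was possible because each group has 1 array. The median log2 ratios of complexes I to V kept their negative sign under all 8 alternatives and with the assembly factors counted as subunits. They ran from -0.16 to -0.072 for complex I, from -0.041 to -0.010 for complex II, from -0.11 to -0.024 for complex III, from -0.082 to -0.019 for complex IV and from -0.21 to -0.14 for complex V. Those of complexes II, III and IV thus came close to 0 in some settings. The median over all subunits was -0.14 as deposited, -0.075 with quantile normalization and -0.079 with loess, and F1 subunits then had a median of -0.20 and -0.23, with 4 of 5 under 0. F1 subunits dropped to 3 measured genes, 2 of them under 0, without _x_at and _s_at probe sets. Among the scalings, the all-gene median lay furthest from 0 with division by the array median, at -0.0067.

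Counts of members past a fold limit were small and changed by single genes. With the floor at the 30th percentile 1 member, Cox4i2, was at least 2-fold lower, at -1.85. With the floor at the 70th percentile 1 member was at least 1.5-fold higher, 0 were 1.5-fold lower and 0 were 2-fold higher. No member was 2-fold higher with the mean over all probe sets (0), and without _x_at and _s_at probe sets 1 was 1.5-fold higher and 0 were 2-fold higher. Cox8c was the member that left the higher counts, at 0.46 with the higher floor, 0.998 as the mean of its probe sets and 0.42 without its _x_at probe set. Ndufaf2 stayed between 0.71 and 0.80. Single genes were recomputed under each alternative only for members named by the preset rule. Of these, 3 turned sign: Uqcrh to 0.29 without _x_at and _s_at probe sets and 0.091 with averaged ones, and, with quantile normalization, Atp5g3 to 0.049 and Cox4i1 to 0.0044. Among the other members, averaging probe sets turned further signs. Examples are Atp5c1 (0.039), Ndufa7 (0.11), Uqcr10 (0.13) and Uqcrq (0.25), now above 0, and Cox5a (-0.026) and Ndufb6 (-0.083), now under 0. For Atp5c1 and Uqcrq the turn came from a weak probe set with its control signal under the floor. These had 28.5 in knockout-labelled islets and 18.5 in control islets for Atp5c1, and 30.7 and 14.9 for Uqcrq. The average gives such a probe set the same weight as the brightest, which for Uqcrq had 2068 and 2092. With averaged probe sets 62 of 86 members were under 0, against 66 as deposited. Of 349 other values recomputed, 11 moved by more than 0.21, the median SD among probe sets of a gene, and no ratio past 1.5-fold changed sign. Signals near the floor limit what can be read from Cox4i2, Cox7a1, Cox7c and Ndufa4l2, and, outside the members, from Ppargc1a.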

Other observations

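The 10 probe sets assigned to several genes that include a respiratory symbol were not counted among the members. Those shared by Ndufb4 and its copies had 1125 in knockout-labelled islets and 1085 in control islets (log2 ratio 0.052), and 839 and 713 in the same order (0.23). The probe set of Ndufs5 and its pseudogene had 633 in knockout-labelled islets and 858 in control islets, a log2 ratio of -0.44 beside -0.35 for the probe set of Ndufs5 alone. For Ndufs6 and its copy the signals were 660.5 in knockout-labelled islets and 774.5 in control islets (-0.23), for Ndufa11 and its copy 1159 and 1248 (-0.11), and for Ndufab1 and its pseudogene 860.1 and 1119.5 (-0.38).

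Ndufaf2 and Ndufs4, which had the highest ratios after Cox8c, both lie on chromosome 13 in the RefSeq order (GRCm38.p6), which was looked at after their values were seen. Between them the annotation places 30 protein-coding genes, and 18 measured genes there had a median log2 ratio of 0.037, 10 above and 8 under 0. The coding gene next to Ndufaf2 on the side of Ndufs4 is Ercc8, a DNA repair gene whose promoter window overlaps that of Ndufaf2 on the other strand. One of its probe sets had 64.8 in knockout-labelled islets and 37.5 in control islets (0.79), and another 40.8 and 48.4 (-0.25). On the other side of Ndufaf2, Smim15 had 399.6 in knockout-labelled islets and 428 in control islets (-0.098). The coding gene next to Ndufs4 on the far side is Fst, which encodes follistatin, a secreted binder of activins. It had 60.6 in knockout-labelled islets and 27.1 in control islets, 2.24-fold higher. Its second probe set gave 90.9 and 8.4 in the same order, at least 4.21-fold higher against the floor. On the near side Arl15 had log2 ratios of -0.38 and 0.022 in its probe sets.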
